A study of Mus musculus with 2 samples.

Results

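Strong solitary EBF1 peaks are listed peaks in mature mouse B cells with many EBF1 ChIP reads and no second listed peak nearby. They were chosen by their reads and their distance from other peaks: at least 25 ChIP reads in the peak, fewer than 50 input reads in the 1 kb bin around its centre, and no other listed peak centre within 50 kb. The rule gave 427 members among the 7415 listed peaks on chromosomes 1 to 19 and X, out of 7424 listed in all. They were set against the 920 peaks that passed the same limits on reads but had another listed centre within 50 kb, called neighboured peaks here. A further 2548 solitary peaks that held fewer than 25 ChIP reads, called weak solitary peaks, served as a second comparison where isolation rather than strength was the question.

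EBF1 (early B cell factor 1) is a DNA-binding protein that B cell precursors need to enter and keep the B lineage, and mature B cells still express it. It binds a palindromic site as a dimer and can reach its sites in closed chromatin. Its binding sites lie both at promoters and at distal enhancers, and several enhancers often lie close together around a gene that a lineage depends on. Genes and DNA sequences at the members were not analysed here, because the tables at hand describe another genome build.

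Both libraries came from follicular B cells of adult C57BL/6 mice, with no genetic change or treatment named in the labels. Spleen cells were depleted with magnetic beads of those bearing CD43, AA4.1, CD9, CD4 or CD8. About 97% of the cells left were B220 positive, and about 92% of these had the follicular surface pattern (CD23 positive, intermediate CD21). One group was a ChIP with a custom rabbit antibody against mouse EBF1 (24337709 reads on chromosomes 1 to 19, X and Y), and the other was Input chromatin (23033569 reads). Each group held 1 library, so the values carry counting error at most, no p-value is given, and peaks are not replicates of a condition. Ratios are ChIP reads over input reads divided by 1.06, the ratio of the library totals, with an exact 95% interval. Positions are in mm8.

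Members ran from 25 to 267 ChIP reads in the 150 bp peak, with a median of 38 and quartiles of 29 and 53. Their input held a median of 2 reads per peak, from 0 to 18, and 53 members (12.4%, exact Clopper-Pearson interval 9.44 to 15.9%) held none. The same was true of 12.3% of neighboured and 32.8% of weak solitary peaks. The members' scores, from the authors' peak caller, lay between 5.89 and 125 around a median of 15.5. At least 10 was scored by 379 of the 427 members (88.8%), 89.7% of neighboured peaks and 2.51% of weak solitary peaks. Reads and scores chose the members or came from the same library, so these values describe them and test nothing. Neighboured peaks were a little stronger, with a median of 41 reads and quartiles of 31 and 61. At least 50 reads were held by 126 members (29.5%, 25.2 to 34.1%) and by 352 neighboured peaks (38.3%, 35.1 to 41.5%), while at least 100 were held by 40 members (9.37%, 6.78 to 12.5%) and by 75 neighboured peaks (8.15%, 6.47 to 10.1%). Because of this shift, comparisons below were repeated within classes of equal ChIP reads.

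The strongest member lay on chromosome 18 at 10918481 to 10918630, with 267 ChIP reads against 4 input reads, a ratio of 63.2 (24.4 to 234). No listed peak held so many ChIP reads outside the high-input bins. Its nearest listed peak was 308 kb away, and 1 other peak lay in the surrounding 1 Mb. Reads on the plus strand started at 159 consecutive bases there, and 89.0% of the 300 positions of the peak over both strands were taken. Every position occurs at most once per strand in the deposited reads, so this count is a lower limit. At least 50% of positions were filled in 8 of 427 members (1.87%) and in 21 of 920 neighboured peaks (2.28%). The cap of 1 read per position and strand was reached locally in other members too. With 45.0% filled, the member on chromosome 14 at 15157911 had minus-strand reads starting at 25 consecutive bases. That on chromosome 16 at 10436501, with 48.0% filled, had plus-strand reads starting at 22. How many members the cap affects was not tested.

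Next came the member on chromosome 6 at 94483781 to 94483930, where 191 ChIP reads faced 0 input reads. Against a floor of 3 input counts in the peak its ratio was 60.3, and the exact lower limit of the ratio was 48.5. The site lay 243 kb from its nearest peak. The member on chromosome 11 at 51599881 to 51600030 had 189 ChIP reads with no input read, 67.6 kb from its neighbour. Its ratio against the floor was 59.6, with an exact lower limit of 48.0. On chromosome 7, the member at 81982851 to 81983000 had 178 against 4, a ratio of 42.1 (16.2 to 156). Chromosome 14 had 2 of the 12 strongest members, 1 starting at 55622191 (176 ChIP against 3 input reads) and 1 starting at 15157911 (135 against 2). These members were unlike in their surroundings. The one on chromosome 11 shared its 1 Mb with 10 other listed peaks, and those on chromosomes 6 and 14 with 1 each.

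The other 6 of the 12 strongest members had between 134 and 158 ChIP reads. On chromosome 1 the member at 158900581 to 158900730 held 158 ChIP reads and 1 input read. The member on chromosome 12 at 111607851 to 111608000 held 157 and 2, and the member on chromosome 8 at 108512291 to 108512440 held 152 and 4. Input reads were thus few at all of them, and this depth does not resolve how the members rank by ratio. The member on chromosome 16 at 10436501 to 10436650 had 144 ChIP reads without an input read. Its ratio against the floor was 45.4, with an exact lower limit of 36.5. On chromosome 3 the member at 116500091 to 116500240 held 143 and 2 reads with no other listed peak in its 1 Mb, the nearest lying 555 kb away. The member on chromosome 10 at 96181331 to 96181480 held 134 and 4. Strong binding was therefore found at isolated positions both in peak-rich and in empty surroundings.

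**Figure D1:**
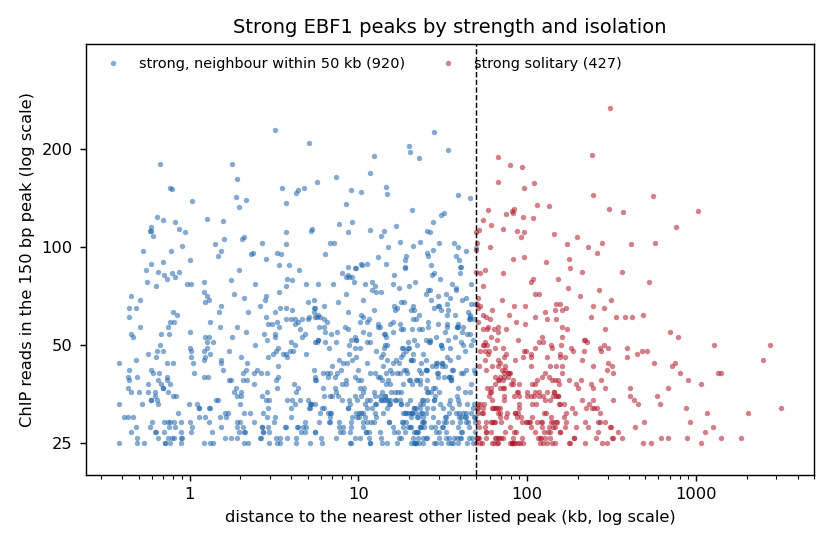
ChIP reads per peak (log axis) against the distance to the nearest other listed peak in kb (log axis) for the 427 strong solitary peaks and the 920 neighboured peaks, 1 point per peak, with the 50 kb limit as a dashed line. Spearman's rho between the axes is -0.00113 in the members, and the member with 267 reads lies 308 kb from its nearest peak.

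Isolation ranged widely among the members. The distance to the nearest listed peak had a median of 116 kb, quartiles of 70.5 and 217 kb, and a range from 50.0 to 3206 kb. Across the 427 members Spearman's rho between ChIP reads and this distance was -0.00113, a description of peaks that share both libraries and were selected on both values, which says nothing of peaks outside the limits. Medians of ChIP reads were 38 for strong peaks with the nearest listed peak at 50 to 100 kb, 36 at 100 to 200 kb, 42 at 200 to 500 kb and 38.5 beyond 500 kb. Within 50 kb they lay between 39 and 46.

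The 5 most isolated members were on chromosomes X, 16, 18 and 5. The member on X at 56347041 to 56347190 lay 3206 kb from any other listed peak, with 32 ChIP and 2 input reads (ratio 15.1, 3.86 to 130). Chromosome 16 had 2 of them, at 62729081 to 62729230 (50 ChIP reads and 1 input read) and at 70197041 to 70197190 (45 and 1), with their nearest peaks 2751 and 2490 kb away. The member on chromosome 18 at 86754391 to 86754540 held 31 and 2 reads, and that on chromosome 5 at 46145821 to 46145970 held 26 and 3. All 5 had regional ratios below 1, from 0.788 to 0.876, as defined further below.

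The limits of the rule cut through a continuous range. Exactly 25 ChIP reads were held by 29 members, with scores from 7.31 to 15.1 and a median of 10.3, and 15 solitary peaks with 24 reads just missed the limit, with scores from 6.02 to 14.8 and a median of 8.37. Just inside the distance limit stood the members on chromosome 17 at 83614131 to 83614280 (98 ChIP reads) and on chromosome 9 at 44406211 to 44406360 (84 reads), both 50.0 kb from the next peak. Just outside stood a peak on chromosome 12 at 86108381 to 86108530, with 99 reads and a neighbour at 49.6 kb, and one on chromosome 11 at 116309991 to 116310140, with 30 reads and a neighbour at 49.3 kb. Input in the 1 kb bin reached 44 reads in the member on chromosome 11 at 108828021 to 108828170, where 102 ChIP reads stood against 18 in the input (5.36 times, 3.23 to 9.41). The solitary peaks on chromosome 16 at 57312921 to 57313070 and on chromosome 3 at 5843661 to 5843810 were left out with 57 and 65 reads in that bin.

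Solitary means solitary in the authors' list. Outside listed peaks, enriched 1 kb bins (ratio 5 or above, on 20 or more ChIP reads) occurred within 50 kb of 58 members (13.6%, 10.5 to 17.2%), 228 neighboured peaks (24.8%, 22.0 to 27.7%) and 323 weak solitary peaks (12.7%). Per 10000 covered bins examined, such bins numbered 16.1 (12.4 to 20.6) around members, 35.5 (31.4 to 39.9) around neighboured peaks, where 1 bin can be counted for several peaks, and 8.33 over all covered bins outside peaks. Beyond 50 kb, the nearest listed peak of a member held a median of 12 ChIP reads, and for 63 members (14.8%, 11.5 to 18.5%) it was itself strong. The same held for 243 neighboured peaks (26.4%, 23.6 to 29.4%), and strong peaks made up 18.3% of the 7361 listed peaks outside high-input bins.

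The ChIP signal of strong peaks had nearly the same median width at solitary sites as at neighboured ones. Width was taken for each peak as the interquartile range of ChIP read positions within 250 bp of the centre, with read ends moved by 50 bp. Its median was 78.8 bp over members, with quartiles of 65.1 and 97.5 bp, and 79.0 bp over neighboured peaks, with quartiles of 66.2 and 96.1 bp. Measured on the pooled profile, at 50% of the height over the flank, the width was 113 bp in members and 115 bp in neighboured peaks. At 25 to 34 ChIP reads the medians were 81.0 and 86.0 bp, at 35 to 49 reads 79.5 and 78.0 bp, at 50 to 99 reads 73.1 and 74.0 bp, and at 100 or more reads 75.4 and 79.8 bp. Members were thus narrower in 3 classes and wider at 35 to 49 reads. The pooled profile was 99.1 bp wide in members and 111 bp in neighboured peaks at 25 to 34 reads, 110 and 111 bp at 35 to 49, 111 and 108 bp at 50 to 99, and 130 bp in each group at 100 or more. The groups therefore differed most in the class with the fewest reads. Weak solitary peaks had a median of 129 bp with their few reads, but their pooled profile was 105 bp wide.

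**Figure D2:**
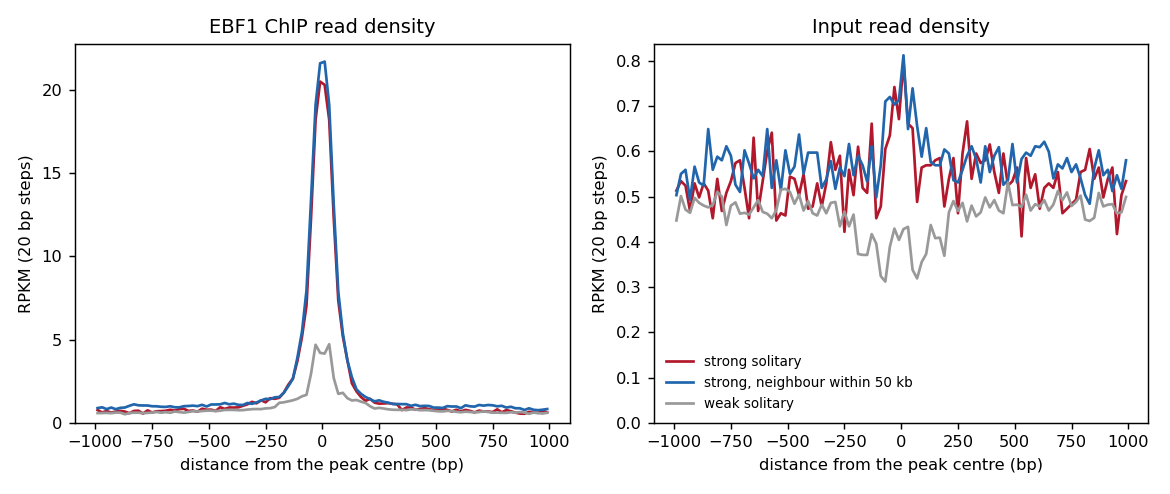
Read density in RPKM (depth-scaled reads per kb, in 20 bp steps) against distance from the peak centre in bp, for EBF1 ChIP (left) and Input (right), averaged over 427 strong solitary, 920 neighboured and 2548 weak solitary peaks. The ChIP curves of the strong groups nearly coincide, with profile widths of 113 and 115 bp, and the input rises at the centre of both strong groups and dips around that of weak solitary peaks.

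Within 40 bp of the centre, members had 19.3 RPKM of ChIP reads, against 0.659 RPKM at 800 to 1000 bp, a ratio of 29.3. Neighboured peaks had 20.4 RPKM at the centre and 0.889 RPKM in that flank, a ratio of 22.9, with the signal of other peaks in the flank included. The centre values follow from the reads that chose the peaks and are a description alone.

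Strand measures were also alike in both groups of strong peaks. The rule counts reads moved by strand inside the 150 bp peak. Strand distance and read position are therefore in part set by the choice of peaks. Of 32463 ChIP reads within 250 bp of the members' centres, 50.0% (49.5 to 50.6%) lay on the plus strand, and of 74204 around neighboured peaks 50.0% (49.7 to 50.4%). The distance between the median 5′ ends of the strands, which follows fragment length, had a median of 120 bp in members, with quartiles of 107 and 132 bp, and 118 bp in neighboured peaks, with quartiles of 106 and 129 bp. The median read position lay within 20 bp of the listed centre in 356 of 427 members (83.4%, 79.5 to 86.8%), in 748 of 920 neighboured peaks (81.3%, 78.6 to 83.8%) and in 1296 of 2548 weak solitary peaks (50.9%, 48.9 to 52.8%).

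Some members departed from this common shape. The members on chromosomes 6 (94483781) and 7 (81982851) had strand distances of 220 and 216 bp and widths of 160 and 146 bp, while the other 10 of the 12 strongest members had strand distances of 108 to 133 bp. In the member on chromosome 7 no plus-strand read started in the 80 bp from -116 to -37 bp of the centre, although 142 plus-strand reads lay within 250 bp, and in that on chromosome 6 a stretch of 38 bp from -67 to -30 bp was empty. The other 10 had no empty stretch on the plus strand longer than 14 bp within the central 80% of reads. On the minus strand these members did not stand apart. The longest empty stretch there was 26 bp in the member on chromosome 6 and 7 bp in that on chromosome 7, against 25 bp in the member on chromosome 8 and 19 bp in that on chromosome 14 at 15157911. Strand distances over 160 bp, a limit set after the values were seen, occurred in 17 of 426 members with a value (3.99%, 2.34 to 6.31%) and in 25 of 920 neighboured peaks (2.72%, 1.77 to 3.99%). A few members chosen after their values were seen had uneven strands. On chromosome 5, the member at 136925991 to 136926140 had 69 plus-strand and 18 minus-strand reads within 250 bp. On chromosome 9, that at 75319081 to 75319230 had 29 and 4. The member on chromosome 4 at 136637821 to 136637970 had 13 and 32. The cause of these patterns was not tested.

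Close to the peak, pooled ChIP signal in the flanks was similar in both groups of strong peaks, and it was lower in members from 1 kb outward. At 250 to 500 bp from the centre the ratio was 1.83 (1.75 to 1.92) in members and 1.84 (1.78 to 1.90) in neighboured peaks, with the surroundings of every other listed peak left out to 1 kb. At 500 to 1000 bp it was 1.33 (1.29 to 1.38) and 1.39 (1.36 to 1.42), with overlapping intervals. Within classes of equal reads the intervals there overlapped too, with the widest gap at 50 to 99 reads, 1.27 (1.17 to 1.37) against 1.42 (1.36 to 1.49). At 100 or more reads the ratio at 250 to 500 bp was 2.02 (1.76 to 2.33) in members and 2.57 (2.29 to 2.88) in neighboured peaks, whose intervals just overlap. At 1 to 2 kb the ratio had fallen to 1.14 (1.11 to 1.17) in members but to 1.27 (1.25 to 1.29) in neighboured peaks. From 5 to 10 kb it was 1.11 (1.10 to 1.12) against 1.26 (1.25 to 1.27), and from 25 to 50 kb 1.11 (1.10 to 1.11) against 1.24 (1.24 to 1.25). The intervals do not overlap at any of the 5 distances from 1 kb on, but they cover counting error alone. A read can be counted for several neighboured peaks, so their intervals are too narrow even for that.

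**Figure D3:**
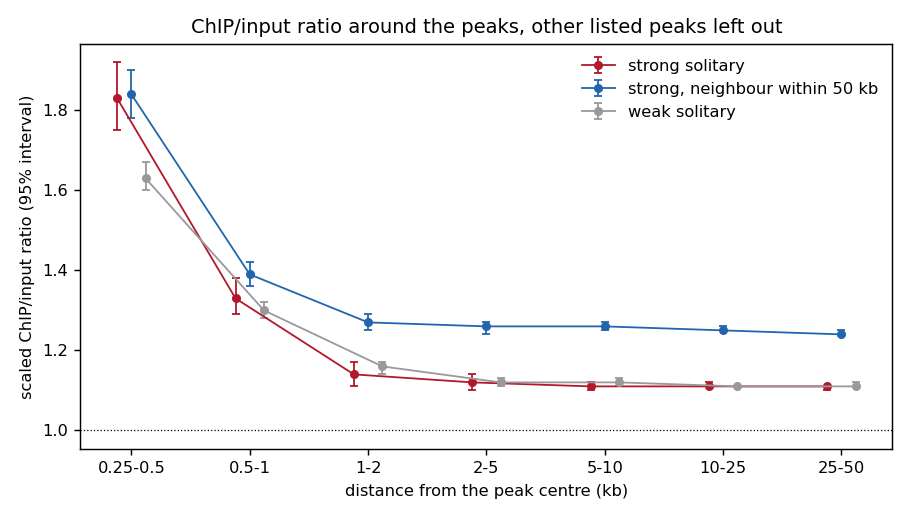
Scaled ChIP to input ratio against distance from the peak centre in kb, pooled over 427 strong solitary, 920 neighboured and 2548 weak solitary peaks, with exact 95% intervals for counting error and the surroundings of other listed peaks left out. Members and weak solitary peaks level off at 1.11, and neighboured peaks at 1.24 to 1.27. A read can be counted for several neighboured peaks, which makes their intervals too narrow.

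Relative to the level at 25 to 50 kb, members stood 1.65 times higher at 250 to 500 bp, 1.20 times at 500 to 1000 bp and 1.03 times at 1 to 2 kb. Neighboured peaks stood 1.48, 1.12 and 1.02 times higher at the same distances. Local signal thus reached its surroundings within about 2 kb in both groups. Weak solitary peaks had 1.16 (1.14 to 1.17) at 1 to 2 kb and 1.11 (1.11 to 1.12) at 25 to 50 kb, close to the members' values. At 1 to 2 kb the classes of equal ChIP reads did not all separate. The ratio was 1.22 (1.17 to 1.27) in members and 1.27 (1.23 to 1.31) in neighboured peaks at 25 to 34 reads, and 1.18 (1.09 to 1.29) and 1.32 (1.24 to 1.41) at 100 or more, with overlapping intervals. It was 1.05 (0.998 to 1.10) and 1.25 (1.20 to 1.30) at 35 to 49 reads, and 1.13 (1.07 to 1.20) and 1.28 (1.24 to 1.32) at 50 to 99, where they did not overlap. Within each class the ratio at 5 to 10 kb was lower in members than in neighboured peaks, at 1.12 and 1.24 for 25 to 34 reads, 1.09 and 1.27 for 35 to 49, 1.12 and 1.26 for 50 to 99, and 1.12 and 1.34 for 100 or more.

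Taken 1 by 1, few members had raised flanks. The interval of the ratio at 500 to 1000 bp lay above 1 in 60 of 427 members (14.1%, 10.9 to 17.7%), near the 14.7% found for all 7361 listed peaks outside high-input bins, and above the 2.93% of covered 1 kb bins at least 2 kb from any listed peak. It did so in 147 of 920 neighboured peaks (16.0%, 13.7 to 18.5%), whose flanks were in part left out. The median member had 16 ChIP reads and 12 input reads there, so a single flank resolves only large ratios.

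Over a whole region, members lay in parts of the genome with less ChIP signal than neighboured peaks did. The regional ratio was taken over 1 Mb centred on the peak, at least 2 kb from any listed peak. Its median was 1.08 in members, with quartiles of 0.998 and 1.21 and a range from 0.768 to 1.66, and 1.21 in neighboured peaks, with quartiles of 1.10 and 1.31. A ratio above 1 was found for 318 of 427 members (74.5%, 70.1 to 78.5%) and for 834 of 920 neighboured peaks (90.7%, 88.6 to 92.5%), against 40.7% of 2530 windows of 1 Mb tiled over the genome. Windows of nearby peaks overlap and share reads, most of all in peak-rich regions, so the intervals of these shares are too narrow. Members thus lay between the genome at large, whose windows had a median of 0.952, and neighboured peaks. Weak solitary peaks had a median of 1.09 and a ratio above 1 in 1861 of 2547 cases (73.1%, 71.3 to 74.8%), much like members.

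The regional ratio was lower at strong peaks farther from the nearest listed peak. Its median was 1.20 to 1.23 for strong peaks with a neighbour within 25 kb, 1.16 at 25 to 50 kb, 1.14 at 50 to 100 kb, 1.06 at 100 to 200 kb, 1.08 at 200 to 500 kb and 0.915 beyond 500 kb (36 peaks). Weak peaks outside high-input bins gave 1.15, 1.10, 1.06 and 0.918 at the last 4 distances. The 50 kb limit lies within this gradual change. The flank ratio at 500 to 1000 bp of strong peaks also tended to be lower at the larger distances, but less evenly. It was 1.44 within 2 kb, 1.45 at 2 to 5 kb, 1.24 (1.17 to 1.32) at 5 to 10 kb, 1.45 at 10 to 25 kb and 1.36 at 25 to 50 kb. Among members it was 1.39 (1.32 to 1.47) at 50 to 100 kb, 1.33 at 100 to 200 kb, 1.26 at 200 to 500 kb and 1.20 (1.06 to 1.37) beyond 500 kb, and the first and last of these intervals overlap. Weak peaks outside high-input bins gave 1.38 (1.35 to 1.42), 1.29, 1.27 and 1.14 (1.08 to 1.19) at these distances. Their first and last intervals do not overlap.

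At equal numbers of other listed peaks in the same 1 Mb, the regional ratios of both groups lay closer together than over all peaks. Members had a median of 4 such peaks, with quartiles of 2 and 7, and 36 members (8.43%) had none, as had 11.3% of weak solitary peaks. Neighboured peaks had a median of 9, with quartiles of 5 and 15. With 1 to 2 other peaks the median regional ratio was 1.02 in 105 members and 1.05 in 57 neighboured peaks. With 3 to 5 it was 1.06 in 127 members and 1.08 in 192 neighboured peaks, and with 6 to 10 it was 1.19 in 116 and 1.18 in 268. With 11 or more it was 1.25 in 43 members and 1.30 in 403 neighboured peaks. Members were lower in 3 of these 4 classes and higher with 6 to 10 other peaks. Isolation within 50 kb and few peaks within 1 Mb go together by construction, so the members' regional values cannot be told apart from the peak number of their region.

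**Figure D4:**
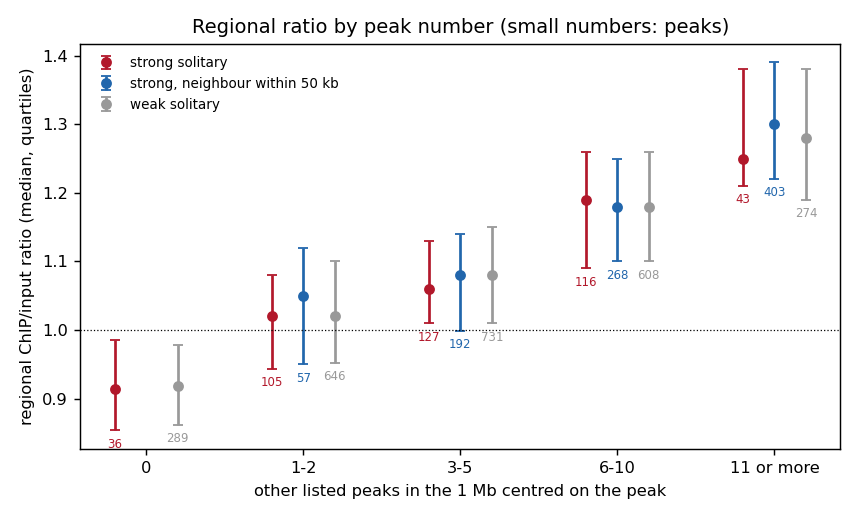
Median regional ChIP to input ratio (1 Mb centred on the peak, outside peaks) with quartiles as bars, by the number of other listed peaks in that 1 Mb, for strong solitary, neighboured and weak solitary peaks, with the number of peaks printed under it. At equal numbers of other peaks the medians of the 3 groups lie close together, from 0.915 in members with none up to 1.30 in neighboured peaks with 11 or more.

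Single members reached both ends of this range. The highest regional ratio, 1.66, belonged to the member on chromosome 10 at 79732591 to 79732740, which held 76 ChIP and 2 input reads and had 42 other listed peaks in its 1 Mb, the nearest of them 54.4 kb away. Members on chromosome 4 at 139974681 to 139974830 (39 and 2 reads) and on chromosome 2 at 30964051 to 30964200 (25 and 2) followed with 1.51 and 1.46. The lowest, 0.768, belonged to the member on chromosome 3 at 106577811 to 106577960 (26 and 3 reads), whose nearest peak was 624 kb away. It was followed by members on chromosome 6 at 68149391 to 68149540 (26 ChIP reads, no input read, regional ratio 0.777) and on chromosome 9 at 4376241 to 4376390 (26 and 4 reads, regional ratio 0.786). ChIP reads of members did not follow the regional ratio, with a Spearman's rho of 0.0209 over the 427 members.

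The input library rose at the members as well. Within 250 bp of their centres it held 0.582 RPKM, against 0.450 RPKM at 5 to 25 kb, a ratio of 1.29 (1.24 to 1.34). Neighboured peaks had 0.619 and 0.474 RPKM, a ratio of 1.31 (1.27 to 1.34), and weak solitary peaks had 0.401 and 0.432 RPKM, a ratio of 0.929 (0.913 to 0.946). Strong peaks of both kinds thus stood on locally raised input and weak solitary peaks on slightly lowered input. The rule limited input from above and only in the bin around the centre, and the name of the authors' peak list points to CCAT, a caller that sets ChIP against a control library. Input may thus have entered the choice of listed peaks, and its part in these values was not tested. By class of ChIP reads, the members' ratio was 1.20 (1.13 to 1.28) at 25 to 34 reads, 1.28 at 35 to 49, 1.26 at 50 to 99 and 1.75 (1.57 to 1.94) at 100 or more. In the last class it was 1.38 (1.23 to 1.56) without the member on chromosome 11 at 108828021, which had the most input, and neighboured peaks had 1.53 (1.41 to 1.65) there. Without that member the value over all members was 1.26 (1.21 to 1.30).

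Members varied less in density between autosomes than neighboured peaks did, which the rule sets in part. On a chromosome rich in listed peaks, a strong peak more often has a neighbour within 50 kb and is then no member. The autosomes held 422 members, 0.184 per covered Mb (0.167 to 0.202), where covered length counts 1 kb bins with an input read. Density ran from 0.108 (0.0559 to 0.189) on chromosome 13 to 0.251 (0.157 to 0.380) on chromosome 17. The most members lay on chromosomes 1 (40), 2 (33) and 4 (30). Neighboured peaks ran over a wider range, from 0.179 per Mb (0.118 to 0.261) on chromosome 3 to 0.843 (0.685 to 1.03) on chromosome 11. Over the 20 chromosomes Spearman's rho with the density of all listed peaks was 0.570 for members and 0.910 for neighboured peaks, as a description, since listed peaks include both groups.

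**Figure D5:**
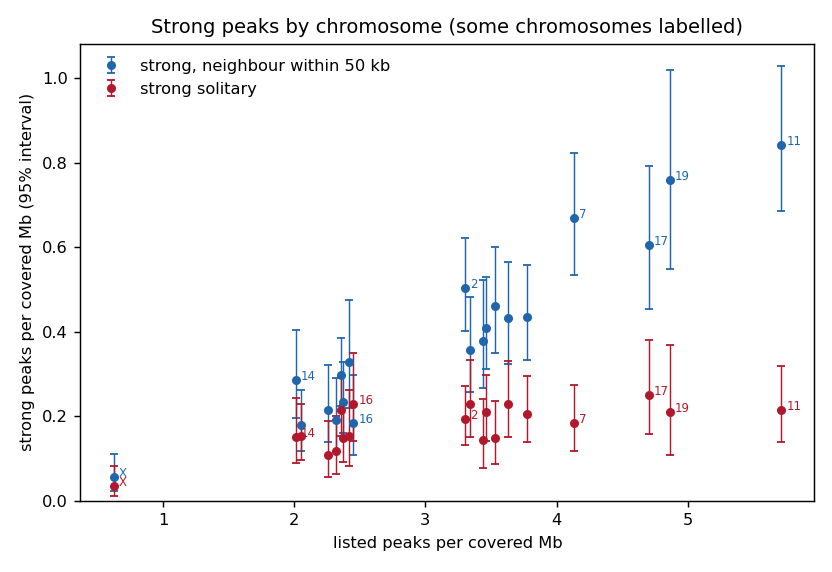
Strong peaks per covered Mb, with exact Poisson 95% intervals, against all listed peaks per covered Mb, 1 point per chromosome and group, for strong solitary and neighboured peaks. Members stay between 0.108 and 0.251 per Mb on the autosomes, while neighboured peaks rise to 0.843 on chromosome 11, and X is lowest in both.

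Of all 1347 strong peaks, 31.7% (29.2 to 34.3%) were solitary. The share was lowest on chromosome 11, at 20.3% (13.6 to 28.5%) of 123 strong peaks, and similarly low on chromosome 7, at 21.6% (14.4 to 30.4%) of 111, and on chromosome 19, at 21.8% of 55. Chromosome 16 had the highest share, 55.3% (38.3 to 71.4%) of 38, and was the only chromosome with more members (21) than neighboured peaks (17). Chromosome 3 followed with 46.0% (31.8 to 60.7%) of 50, and chromosome 1 with 42.1% (32.0 to 52.7%) of 95. Peaks on a denser chromosome lie closer together on average, so this share and the density of listed peaks are not independent. Spearman's rho between them was -0.701 over the 20 chromosomes, as a description. X, with the fewest listed peaks per Mb, had a share of 38.5% (13.9 to 68.4%) of 13. Among the 7361 listed peaks of any strength outside high-input bins, 2975 were solitary, a larger share than among strong peaks. Such solitary peaks numbered 180 against 664 listed peaks on chromosome 11, 108 against 225 on 16 and 179 against 309 on 3. Low and high shares on these chromosomes were thus not particular to strong peaks.

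Chromosome X held 5 members, 0.0351 per covered Mb (0.0114 to 0.0818), 5.25-fold below the autosomes (2.23 to 16.3). All listed peaks were similarly scarce there, at 0.624 per covered Mb against 3.20 on the autosomes. X held 8 neighboured peaks, 7.09-fold below (3.58 to 16.5), and 51 weak solitary peaks, 3.05-fold below (2.31 to 4.10). The intervals overlap, so a difference between these folds was not resolved with so few peaks. The 3 strongest members on X started at 97471021, with 47 ChIP reads against 4 in the input, at 19955281, with 40 against 2, and at 154994351, with 35 against 1. None of the 5 reached 50 reads. Regional ratios on X ran from 0.821 to 1.01 in these 5 members.

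Adjacent members on a chromosome were a median of 3.40 Mb apart, with quartiles of 1.15 and 7.87 Mb. The closest pair lay 0.0515 Mb apart, just beyond the limit. The longest stretch between adjacent members was 57.5 Mb on X, from 97471095 to 154994425.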

How the data were processed

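EBF1 ChIP-seq and Input were measured in 1 library each. Per the submitters' processing notes the build is mm8 and HOMER is named, while the name of the deposited peak list carries CCAT, a control-based peak caller. Aligner, read filters and peak-calling settings were not given in the sources used here. Files were deposited as aligned 35-base read positions without values and as a list of 150 bp peaks with a score, the value the authors' caller gave each peak, used here as a description alone.

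Read ends were moved by 100 bp for counts and 50 bp for profiles and widths. Ratios carry exact conditional binomial intervals, shares Clopper-Pearson intervals and densities Poisson intervals, all at 95% and for counting error only. Deposited reads hold each position at most once per strand, so the intervals do not cover reads lost where positions are filled. Nor do they cover reads shared by the wide flanks and regional windows of nearby peaks. A count of 0 allows up to 3 reads, 0.123 RPM in ChIP and 0.130 RPM in Input. Regional windows needed at least 2000 input reads, which 1 weak solitary peak missed. Profile width, strand distance, flank ratio and regional ratio were tested on simulated data. Peaks there were isolated and reads per position were not capped, and the width per peak was not compared. Alternatives changed the read shift, read minimum, isolation distance, scaling, masking and window.

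Named peaks are the 12 members with the most ChIP reads, the 5 most isolated, the 3 strongest on X, the 3 highest and 3 lowest in regional ratio, and those beside each limit. Members, groups and measures were chosen with earlier results of these data known. Tools were Python 3.11.15 with scipy 1.17.1, pandas 2.3.3, matplotlib 3.10.9 and numpy 2.4.6.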

Additional observations from a re-analysis of the deposited data

How the results depend on the processing

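Of 63 values recomputed with other settings, 42 stayed within their main 95% interval (for numbers of peaks, within 1.5 times) and 21 moved. In all settings run the flank and regional ratios were lower in members than in neighboured peaks. The order of the widths changed, to 79.2 bp in members against 78.0 bp, at an isolation distance of 25 kb. With at least 50 ChIP reads there were 126 members and 352 neighboured peaks, a solitary share of 26.4%, ratios within peaks of 32.2 and 31.9, widths of 75.0 and 75.2 bp and a flank ratio of 1.45 in neighboured peaks. The density of these members on X relative to autosomes was then 0 (0 to 0.478), an interval that holds the main value of 0.190. A distance of 25 kb made 46.5% of strong peaks solitary. A distance of 100 kb left 240 members, a share of 17.8% and a regional ratio of 1.05 in members. Counting only strong peaks as neighbours gave 952 solitary and 395 neighboured peaks, a share of 70.7%. With read ends moved by 50 bp for counts there were 508 members and 1061 neighboured peaks, against 427 and 920, and a solitary share of 32.4%. Moving profile positions by 100 bp gave widths of 106 bp in members and 106 bp in neighboured peaks. With the surroundings of other peaks kept, the flank ratio of neighboured peaks was 1.69. In a 200 kb window the regional ratio of neighboured peaks was 1.24. Settings added after the data were seen left out the member with the most input, which took the input ratio at 100 or more reads from 1.75 to 1.38, and members with at least 50% of positions filled, which left the width at 78.5 bp. Numbers of members follow from the limits, and the cause of the other shifts was not tested. No paired analysis was possible because ChIP and Input are single libraries, with 1 pair in all.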
